A study of Mus musculus with 28 samples.

Results

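The vacuolar proton pump and the resident proteins of the lysosomal membrane were followed as 38 named genes, out of the 53801 genes in the deposited count table. Of these, 18 encode subunits or accessory proteins of the proton pump, the V-ATPase (symbols starting with Atp6), and 20 encode lysosomal membrane glycoproteins, channels, transporters and other membrane proteins. They were listed by symbol and role, with earlier results of these data known. RNA was measured in 1 hemibrain, cerebellum included and olfactory bulb removed, from each of 28 C57Bl/6J mice of 4 groups, 7 mice a group. DKO AAV mice lacked both Grn and Tmem106b and received AAV(L):bPGRN, and DKO saline mice had the same double knockout and received saline. WT AAV mice were wild type and received AAV(L):bPGRN, and WT saline mice were wild type and received saline. AAV(L):bPGRN is a liver-targeting vector that encodes human progranulin fused to an antibody fragment against the mouse transferrin receptor. Mice were injected intravenously at 6 weeks of age, those of the AAV groups with 1.3e+13 vector genomes per kg. Tissue was taken 9 to 10 weeks later, at an age of 15 to 16 weeks. Each group held 3 or 4 males. The labels give the genotype as a double knockout and name no allele or driver for either gene.

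The V-ATPase is a rotary pump that hydrolyses ATP to move protons into lysosomes, endosomes and synaptic vesicles. Its cytosolic V1 sector holds the ATP-hydrolysing subunits, its membrane V0 sector holds the proton path, and accessory subunits help its assembly and trafficking. The lysosomal membrane itself is lined by heavily glycosylated proteins such as LAMP1 and LAMP2, and carries the channels and transporters that export ions, amino acids, sugars and cholesterol. Progranulin, the product of Grn, is delivered to lysosomes and is processed there, and TMEM106B is a lysosomal membrane protein that is known to bind the V-ATPase accessory subunit AP1. Several members are targets of TFEB and related transcription factors, which bind E-box sequences of lysosomal gene promoters.

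The promoters of 4 members that recur in the results are shown, and promoter sequence was not tested against expression. The 4 are Lamp1 and Lamp2, paralogous glycoproteins, Cd68, a glycoprotein of microglia and macrophages, and the pump subunit Atp6v1a. Atp6v1a was higher than in WT saline brains in both DKO groups without overlap. Each promoter is shown as the 150 bases before the RefSeq transcription start on GRCm38.p6, read on the gene's own strand. Every CACGTG, the E-box core and its own reverse complement, is in capitals. Lamp1 is chr8:13159011-13159160 on the plus strand, Lamp2 chrX:38456461-38456610 on the minus strand, Cd68 chr11:69666171-69666320 on the minus strand and Atp6v1a chr16:44139260-44139409 on the minus strand.
Lamp1: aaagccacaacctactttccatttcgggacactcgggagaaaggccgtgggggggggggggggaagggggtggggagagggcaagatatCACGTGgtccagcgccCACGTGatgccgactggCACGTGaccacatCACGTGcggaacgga
Lamp2: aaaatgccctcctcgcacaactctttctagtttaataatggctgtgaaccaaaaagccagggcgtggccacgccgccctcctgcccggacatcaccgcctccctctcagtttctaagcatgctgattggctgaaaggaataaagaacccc
Cd68: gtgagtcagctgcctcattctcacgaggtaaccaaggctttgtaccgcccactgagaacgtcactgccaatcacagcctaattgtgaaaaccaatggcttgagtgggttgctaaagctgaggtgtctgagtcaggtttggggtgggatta
Atp6v1a: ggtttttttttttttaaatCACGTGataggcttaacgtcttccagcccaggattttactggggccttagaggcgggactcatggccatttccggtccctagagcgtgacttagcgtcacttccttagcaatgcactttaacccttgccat
Lamp1 held 4 copies of CACGTG in its window and Atp6v1a 1 copy, and Lamp2 and Cd68 held none. Over the full RefSeq window of 250 bases before to 50 bases after the start, CACGTG was found in 8 of the 30 members with a promoter entry (26.7%), against 8.09% of 27025 genes. The longer TCACGTG, searched on both strands and overlapping the first, was also found in 8 of 30 members, against 4.29% of all genes. The 8 members were Lamp1, Clcn7, Cln3, Mcoln1, Atp6v1a, Atp6v0b, Atp6v0d1 and Atp6v0e. Among members that were higher in DKO saline brains, 2 of 10 with an entry (20.0%) held CACGTG, against 5 of 18 other tested members (27.8%).

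The libraries held 1164637 to 2389815 counts. Tmem106b ran from 6.59 to 12.5 CPM (counts scaled to a common library size) in DKO AAV and 7.38 to 20.1 in DKO saline brains, against 101 to 143 in WT AAV and 75.6 to 149 in WT saline brains. Its log2 difference between DKO saline and WT saline brains was -3.26 ± 0.17 (SE). Grn had medians of 129 CPM in DKO AAV, 201 in DKO saline, 169 in WT AAV and 177 in WT saline brains. The 3' tags of Grn may lie outside the deleted part, so its level does not check the genotype. Dissection varied: the mean log2 level of striatal or cerebellar neuron markers was low in 3 libraries (DKO saline replicate 2, WT AAV replicate 7 and WT saline replicate 6), and 13 libraries departed in some regional or pituitary marker list, 1 of them DKO AAV, 4 DKO saline, 5 WT AAV and 3 WT saline. Mitochondrially encoded genes took a median of 15.5% of counts in DKO AAV, 16.2% in DKO saline, 19.0% in WT AAV and 20.3% in WT saline brains.

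Of the 38 members, 36 had enough counts to test. Mcoln1, the calcium channel TRPML1, had 1.76 to 11.1 CPM over the 28 libraries and was not tested. Atp6v0c, the ring subunit of V0, had 5 counts in all 28 libraries together. It lies at chr17:24163866-24169702 on the minus strand and is wholly inside a longer protein-coding model on the same strand, RP23-27H19.7, which had 0 counts, so its near absence is not read as low expression. Another 6 members have a gene model on the other strand over their 3' end. Among these, Slc25a18 on the other strand of Atp6v1e1 had 3429 counts in all libraries together, against 15030 for Atp6v1e1, and Grtp1 on the other strand of Lamp1 had 117, against 24620 for Lamp1. Whether counting used strand is not stated in the labels or processing notes.

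In DKO saline brains, 13 of the 36 tested members rose relative to WT saline brains and none fell, against 3.62% of all 11123 tested genes that rose and 3.27% that fell. The 13 were 5 of 9 V1 subunits, both accessory subunits, all 4 glycoproteins and 2 LAPTM proteins, and no member of the V0 sector, the channels or the transporters passed the test. Of the pump genes 7 of 17 rose, with a median log2 difference of 0.27 over all 17, and of the other membrane genes 6 of 19 rose, with a median of 0.35. The median over all tested genes was 0.0034. Scaled by library totals in place of TMM, the median of all genes moved to 0.12, and 84.5% of the 1183 genes called were higher, against 52.5% of the 767 called with TMM. Under that scaling 11 pump genes and 7 other membrane genes were called, all higher. Groups did not overlap for 7 members (Lamp1, Lamp2, Cd68, Scarb2, Laptm4a, Atp6v1f and Atp6v1a), against 0.683% of all genes that lay wholly higher. Deposited counts of 100 or more are rounded and can be off by up to 4.76%. The narrow gaps of Scarb2, Laptm4a and Atp6v1a may therefore not hold with exact counts. Unless another test or setting is named, adjusted p-values are over the 11123 genes, from edgeR's quasi-likelihood test. Fits that left out libraries were adjusted over the genes tested in each fit. A ± after a log2 difference is its SE.

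**Figure D1:**
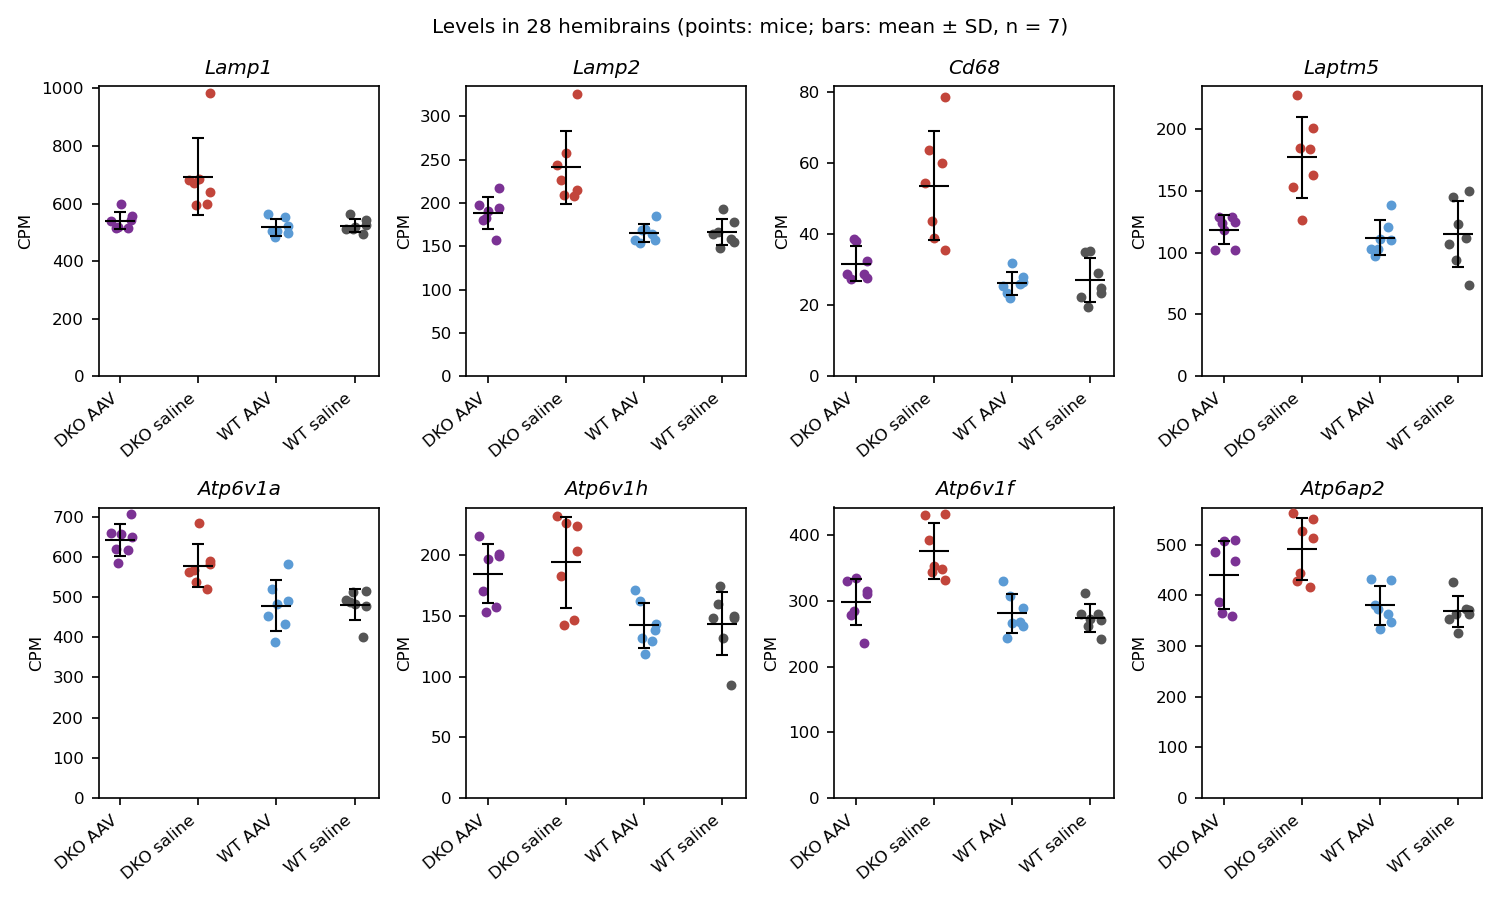
CPM of 8 members (vertical axes, from 0) in each mouse of DKO AAV, DKO saline, WT AAV and WT saline groups; points are mice and bars the mean ± SD of 7. Lamp1, Lamp2, Cd68 and Laptm5 are highest in DKO saline and lower in DKO AAV, whereas Atp6v1a and Atp6v1h are high in both DKO groups.

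The 4 glycoproteins all rose. Lamp1, a main structural glycoprotein of the lysosomal membrane, ran from 596 to 983 CPM (median 671) in DKO saline brains, against 495 to 562 CPM (median 519) in WT saline brains. Every DKO saline mouse was above every WT saline mouse, and DKO saline replicate 2 stood far above the other 6. The log2 difference was 0.44 ± 0.08 (adjusted p = 0.000585). Lamp2, its paralog and the receptor of chaperone-mediated autophagy in its A isoform, ran from 208 to 326 CPM (median 227) in DKO saline brains, against 148 to 193 CPM (median 165) in WT saline brains. Its groups did not overlap either, and its log2 difference was 0.59 ± 0.08 (adjusted p = 2.51e-05). Cd68, a lysosomal glycoprotein of microglia and macrophages, ran from 35.5 to 78.6 CPM (median 54.4) in DKO saline brains, against 19.5 to 35.2 CPM (median 25.0) in WT saline brains. This was the widest change among the members, a log2 difference of 1.04 ± 0.16 (adjusted p = 7.06e-05), although the lowest DKO saline mouse almost touched the highest WT saline mouse. Scarb2, which carries glucocerebrosidase to lysosomes, ran from 252 to 393 CPM (median 262) in DKO saline brains, against 182 to 246 CPM (median 222) in WT saline brains. Its log2 difference was 0.45 ± 0.09 (adjusted p = 0.000991).

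Among the other membrane proteins, Laptm5 and Laptm4a rose. Laptm5, a lysosomal protein of blood-derived cells and microglia, ran from 126 to 227 CPM (median 183) in DKO saline brains, against 74.0 to 150 CPM (median 112) in WT saline brains. The groups overlapped, and the log2 difference was 0.62 ± 0.12 (adjusted p = 0.000991). Laptm4a, a broadly expressed relative, ran from 839 to 1179 CPM (median 917) in DKO saline brains, against 654 to 808 CPM (median 765) in WT saline brains, with no overlap and a log2 difference of 0.37 ± 0.09 (adjusted p = 0.00589). Laptm4b differed by 0.20 ± 0.13 on the log2 scale and Tmem192, a lysosomal membrane protein of unknown transport function, by 0.20 ± 0.17, and neither passed the test. Laptm4b ran from 83.9 to 197 CPM (median 108) in DKO saline brains, against 99.9 to 140.1 CPM (median 107) in WT saline brains, with wide overlap.

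In bulk tissue, more cells of a type and more RNA per cell cannot be told apart. Of 15 microglia marker genes, 10 rose in DKO saline relative to WT saline brains. Their summed level ran from 1809 to 3150 CPM in DKO saline brains, against 990 to 1606 CPM in WT saline brains, and no marker was at 0 in the study. Of 14 neuron markers, 2 fell and none rose, and their sums ran from 5185 to 6734 CPM in DKO saline and 5427 to 6538 CPM in WT saline brains. Of 10 reactive astrocyte markers, 5 were tested and 4 rose, with sums of 485 to 1654 CPM in DKO saline brains, against 192 to 295 CPM in WT saline brains. Of 13 mitochondrially encoded genes, 8 were tested and 7 fell. The part of these genes in the rise of Cd68, Laptm5 and the other members was not tested. Without the 13 libraries of atypical regional content, which left 3 DKO saline and 4 WT saline mice, the log2 difference of Cd68 was 0.26 (adjusted p = 0.52), of Laptm5 0.28 (0.273), of Lamp1 0.33 (0.0696), of Scarb2 0.40 (0.0625) and of Laptm4a 0.30 (0.149), and Lamp2 still rose, by 0.53 (0.00926). In that smaller set of mice 11 pump genes rose, all 7 called over the full set among them. Of all 11735 genes tested in that set, 402 rose and 501 fell.

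Of the 9 V1 subunits, 5 rose and none fell. Atp6v1a, the catalytic subunit that binds and hydrolyses ATP, ran from 519.9 to 685 CPM (median 567) in DKO saline brains, against 402 to 514 CPM (median 486) in WT saline brains. The groups did not overlap, by a narrow margin, and the log2 difference was 0.32 ± 0.07 (adjusted p = 0.00787). Atp6v1b2, the brain form of the other subunit of the catalytic ring, ran from 497 to 738 CPM (median 549.9) in DKO saline brains, against 395 to 518 CPM (median 414) in WT saline brains. Its groups overlapped slightly and its log2 difference was 0.43 ± 0.10 (adjusted p = 0.00791). Atp6v1h, a regulatory subunit of V1, ran from 143 to 232 CPM (median 204) in DKO saline brains, against 93.4 to 175 CPM (median 148) in WT saline brains. The lowest DKO saline mice lay within the WT saline range, and the log2 difference was 0.52 ± 0.11 (adjusted p = 0.00165). Atp6v1f, a subunit of the central rotor, ran from 332 to 432 CPM (median 353) in DKO saline brains, against 242 to 312 CPM (median 272) in WT saline brains. Its groups did not overlap, and its log2 difference was 0.49 ± 0.09 (adjusted p = 0.000373). Atp6v1c1, which joins the V1 stalk to V0, ran from 196 to 275 CPM (median 244) in DKO saline brains, against 156 to 215 CPM (median 193) in WT saline brains. The groups overlapped and the log2 difference was 0.37 ± 0.09 (adjusted p = 0.0108).

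The other 4 V1 subunits did not pass. Atp6v1e1, part of the peripheral stalks, had a log2 difference of 0.27 ± 0.10 (adjusted p = 0.0892), and Atp6v1d, a rotor subunit, 0.11 ± 0.11. Atp6v1e1 passed when WT saline replicate 6 or 7 was left out, at 0.34 in both cases (adjusted p = 0.0204 and 0.0284). The paired stalk isoforms Atp6v1g1 and Atp6v1g2 differed by -0.01 ± 0.13 and -0.03 ± 0.10, the smallest values in the sector. Atp6v1g1 ran from 34.4 to 47.1 CPM (median 42.2) in DKO saline brains, against 29.9 to 49.1 CPM (median 44.8) in WT saline brains. Atp6v1g2 ran from 279 to 411 CPM (median 312) in DKO saline brains, against 263 to 392 CPM (median 299) in WT saline brains. The groups overlapped widely for both.

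Both accessory subunits rose. Atp6ap2, also known as the prorenin receptor, ran from 416 to 561 CPM (median 512) in DKO saline brains, against 325 to 426 CPM (median 364) in WT saline brains. Only the lowest DKO saline mouse lay within the WT saline range, and the log2 difference was 0.47 ± 0.08 (adjusted p = 0.000435). Atp6ap1, the subunit AP1 that TMEM106B is known to bind, ran from 297 to 432 CPM (median 353) in DKO saline brains, against 230 to 355 CPM (median 263) in WT saline brains. Its log2 difference was 0.38 ± 0.10 (adjusted p = 0.0186), with 0.31 (0.0916) when DKO saline replicate 2 was left out and 0.33 (0.0543) when WT saline replicate 3 was.

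No V0 subunit passed the test, with a median log2 difference of 0.19 over 6, and 2 of the 6 had an unadjusted p under 0.05, as did 20.9% of all genes. DESeq2 called no V0 subunit either. With 1 mouse left out, Atp6v0d1 passed without WT saline replicate 6, at 0.33 (adjusted p = 0.0387), and Atp6v0b without WT saline replicate 7, at 0.36 (0.0403). Without the 13 atypical libraries they were at 0.51 (0.019) and 0.64 (0.00308). The values ran from -0.04 ± 0.11 for Atp6v0a1, the neuronal form of the large subunit of the proton path, to 0.27 ± 0.11 for Atp6v0b, a ring subunit. Atp6v0d1, which couples V0 to the rotor, had 0.26 ± 0.10, Atp6v0a2 0.20 ± 0.13, Atp6v0e 0.17 ± 0.09 and Atp6v0e2 0.14 ± 0.08, all on the log2 scale. Atp6v0a1 ran from 128 to 179 CPM (median 145) in DKO saline brains, against 121 to 182 CPM (median 148) in WT saline brains, and Atp6v0a2 from 41.4 to 74.7 CPM (median 46.2) in DKO saline brains, against 38.7 to 57.0 CPM (median 42.8) in WT saline brains. Atp6v0e ran from 73.8 to 110 CPM (median 93.1) in DKO saline brains, against 74.0 to 90.5 CPM (median 84.0) in WT saline brains, and Atp6v0e2 from 235 to 316 CPM (median 272) in DKO saline brains, against 222 to 272 CPM (median 256) in WT saline brains. The groups overlapped for all 4. The difference between V1 and V0 subunits was not tested.

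None of the 5 tested channel and ion transport genes passed in edgeR's quasi-likelihood test or in DESeq2. In the edgeR test 1 had an unadjusted p under 0.05, as did 20.9% of all genes. The values ran from Atp13a2, a polyamine exporter, at -0.11 ± 0.12 to Tmem175, a proton and potassium channel, at 0.30 ± 0.14. Clcn7, the chloride and proton exchanger, had 0.17 ± 0.14, its partner Ostm1 0.16 ± 0.12 and the endolysosomal cation channel Tpcn1 0.09 ± 0.09. The 6 transporters had a median log2 difference of 0.40, above that of the pump genes. None was called by edgeR's quasi-likelihood test or by DESeq2. In the edgeR test 4 of the 6 had an unadjusted p under 0.05, against 20.9% of all genes. Ctns, the cystine exporter, differed by 0.63 ± 0.24 (adjusted p = 0.107), Cln3, a protein lost in juvenile Batten disease, by 0.49 ± 0.22 (0.186), Slc17a5, the sialic acid exporter, by 0.44 ± 0.19 (0.171) and Npc1, the cholesterol exporter, by 0.35 ± 0.15 (0.171). Mfsd8 had -0.14 ± 0.29 and Slc38a9, the arginine sensor, -0.19 ± 0.12. Levels in this class were low: Ctns, Cln3 and Mfsd8 had medians of 6.15 to 9.31 CPM in all groups, and the SE of Mfsd8 was more than 3 times that of Lamp1.

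**Figure D2:**
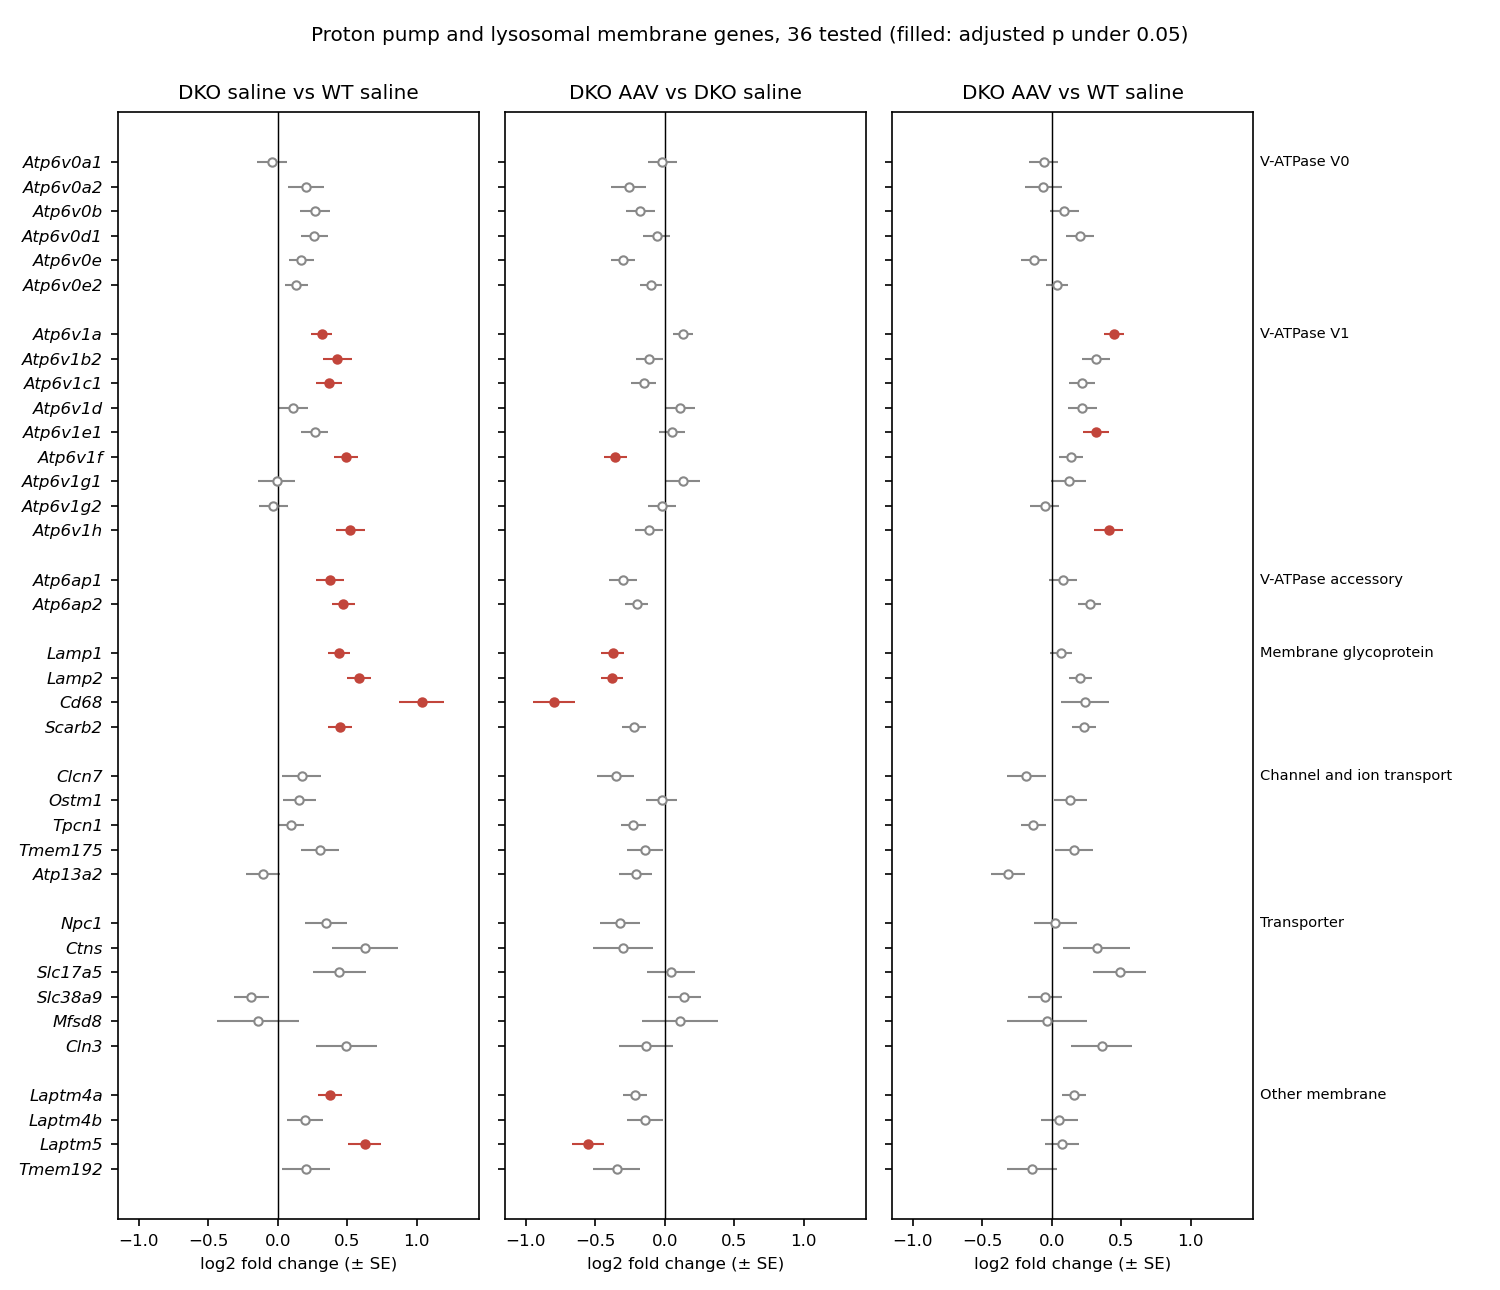
Log2 difference (horizontal axes) with its SE for the 36 tested members, 1 row a gene, ordered by role, in 3 comparisons (left, DKO saline vs WT saline; middle, DKO AAV vs DKO saline; right, DKO AAV vs WT saline); filled points have an adjusted p under 0.05. In turn 13 members are higher, 5 are lower and 3 are higher, and the last 3 are all V1 subunits.

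After AAV(L):bPGRN, 5 of the 36 members fell in DKO AAV relative to DKO saline brains and none rose, against 2.2% of all genes that fell and 0.818% that rose. They were Cd68, Laptm5, Lamp1, Lamp2 and the pump subunit Atp6v1f, all 5 among the 13 that were higher in DKO saline brains. The 2 comparisons share the DKO saline mice and are not independent. Of the other membrane genes 4 of 19 fell, with a median log2 difference of -0.22, and of the pump genes 1 of 17, with a median of -0.11. The median over all genes was -0.0025. Of all genes called, 27.1% were higher in DKO AAV brains, and 37.9% with scaling by library totals, under which the same 5 members were called.

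Lamp1 ran from 516 to 598 CPM (median 539) in DKO AAV brains, against 596 to 983 CPM (median 671) in DKO saline brains. Only the highest DKO AAV mouse lay above the lowest DKO saline mouse, and the log2 difference was -0.38 ± 0.08 (adjusted p = 0.00832). Lamp2 ran from 158 to 217 CPM (median 191) in DKO AAV brains, against 208 to 326 CPM (median 227) in DKO saline brains. Again only the highest DKO AAV mouse reached the DKO saline range, and the log2 difference was -0.38 ± 0.08 (adjusted p = 0.0104). Cd68 ran from 27.3 to 38.6 CPM (median 28.8) in DKO AAV brains, against 35.5 to 78.6 CPM (median 54.4) in DKO saline brains. The 2 highest DKO AAV mice lay above the lowest DKO saline mouse and under the other 6, and the log2 difference was -0.80 ± 0.15 (adjusted p = 0.00297). Laptm5 ran from 102 to 129 CPM (median 124) in DKO AAV brains, against 126 to 227 CPM (median 183) in DKO saline brains. Its 2 highest DKO AAV mice lay just above the lowest DKO saline mouse, and the log2 difference was -0.55 ± 0.12 (adjusted p = 0.00807). Atp6v1f ran from 237 to 335 CPM (median 309.8) in DKO AAV brains, against 332 to 432 CPM (median 353) in DKO saline brains. Only the highest DKO AAV mouse reached the DKO saline range, and the log2 difference was -0.35 ± 0.08 (adjusted p = 0.0179).

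These calls leaned on 1 mouse. Without DKO saline replicate 2, the only DKO saline mouse of batch 2, Cd68 was the 1 member that still fell, and the log2 differences were -0.61 for Cd68 (adjusted p = 0.0486), -0.27 for Lamp1 (0.0644), -0.29 for Lamp2 (0.0877), -0.46 for Laptm5 (0.0593) and -0.32 for Atp6v1f (0.0912). The number of genes called among all tested was 54 without it, against 336 with it. Atp6v1f also missed the threshold without DKO saline replicate 3, DKO AAV replicate 5 or DKO AAV replicate 7. Without the whole of batch 2 no member was called, and none without the 13 libraries of atypical regional content. In that last set of mice the value of Cd68 was -0.19 (adjusted p = 0.758), against -0.80 over all libraries, and Laptm5 had -0.31 (0.361), Lamp1 -0.26 (0.313), Lamp2 -0.29 (0.333) and Atp6v1f -0.25 (0.447). With the deposited counts the 2 groups overlapped for all 36 members, and 0.414% of all genes lay wholly lower in DKO AAV brains. Lamp1 overlapped narrowly (highest DKO AAV 598 CPM, lowest DKO saline 596 CPM), as did Atp6v1f (335 and 332) and Laptm5 (129 and 126). Their deposited counts are rounded and can be off by up to 4.76%, so these narrow overlaps may not hold with exact counts. All 5 genes were lower in DKO AAV than in DKO saline brains within each of the 4 batches, though by -0.03 on the log2 scale for Cd68, -0.07 for Atp6v1f and -0.09 for Laptm5 in batch 1, which held 1 mouse of each group. These within-batch values carry no sex term. In batches 1, 2 and 3 the DKO AAV and DKO saline mice were of opposite sex. Sex and treatment cannot be told apart within those batches. Microglia markers moved too: 9 of 15 fell in DKO AAV relative to DKO saline brains, and their sum ran from 1360 to 1670 CPM in DKO AAV brains, against 1809 to 3150 CPM in DKO saline brains. Of the 5 tested reactive astrocyte markers, 3 fell, with sums of 332 to 450.5 CPM in DKO AAV brains, against 485 to 1654 CPM in DKO saline brains. Regional markers moved as well. All 3 tested pituitary markers fell, with a median log2 difference of -5.64. Their sums ran from 1.43 to 83.9 CPM (median 8.55) in DKO AAV brains, against 3.36 to 2371 CPM (median 15.3) in DKO saline brains. The medians of the sums lay much closer together than the highest values. The 11 striatal and 10 cerebellar neuron markers all had positive values, with medians of 0.25 and 0.45 and none called. The part of these markers in the fall of the 5 members was not tested.

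The other members that had risen in DKO saline brains did not pass in this comparison. Atp6ap1 had a log2 difference of -0.30 ± 0.10 (adjusted p = 0.0846), Scarb2 -0.22 ± 0.08 (0.137), Laptm4a -0.21 ± 0.08 (0.149) and Atp6ap2 -0.20 ± 0.08 (0.172). The pump subunits Atp6v1c1, Atp6v1h and Atp6v1b2 had -0.15 ± 0.09, -0.11 ± 0.10 and -0.11 ± 0.10. Atp6v1a alone of the 13 had a positive value, 0.13 ± 0.07 (adjusted p = 0.319). Among members that had not risen, the lowest p was that of Atp6v0e, a small V0 subunit, with -0.30 ± 0.09 (adjusted p = 0.0585). It passed when DKO saline replicate 1 or DKO AAV replicate 6 was left out, at -0.36 (adjusted p = 0.0143) and -0.34 (0.0431).

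DKO AAV brains were then set against WT saline brains, to see how far treated mice stood from untreated WT mice. In this comparison 3 of 36 members were higher and none lower, against 1.43% of all genes that were higher and 3.82% that were lower. Of all genes called, 27.2% were higher in DKO AAV brains with TMM and 83.7% with scaling by library totals, which moved the median of all genes to 0.15 and called 9 pump genes and 4 other membrane genes, all higher. All 3 members called with TMM were V1 subunits, with a median log2 difference of 0.22 over the 9 of that sector. Atp6v1a ran from 583 to 707 CPM (median 649) in DKO AAV brains, against 402 to 514 CPM (median 486) in WT saline brains. Its lowest DKO AAV mouse was above its highest WT saline mouse, which held for 0.342% of all genes, and the log2 difference was 0.45 ± 0.07 (adjusted p = 0.000334). Atp6v1h ran from 153 to 216 CPM (median 197) in DKO AAV brains, against 93.4 to 175 CPM (median 148) in WT saline brains, with overlap and a log2 difference of 0.41 ± 0.10 (adjusted p = 0.0162). Without WT saline replicate 7, its lowest mouse, the value was 0.35 (adjusted p = 0.0593). Atp6v1e1 ran from 314 to 455 CPM (median 417) in DKO AAV brains, against 271 to 370 CPM (median 309.7) in WT saline brains. Its log2 difference of 0.32 ± 0.10 (adjusted p = 0.0441) missed the threshold in 14 of the 28 fits that each left out 1 mouse.

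None of the 19 other membrane genes was called between DKO AAV and WT saline brains by edgeR's quasi-likelihood test or by DESeq2, and 4 had an unadjusted p under 0.05, as did 19.2% of all genes. Of these 4, Scarb2, Slc17a5 and Lamp2 had positive values and Atp13a2 a negative one. Atp13a2 had a median of 46.9 CPM and a highest value of 67.1 CPM in DKO AAV brains, against a median of 64.2 CPM and a lowest of 51.8 CPM in WT saline brains, with overlap. Its log2 difference was -0.31 ± 0.12 (adjusted p = 0.141), the lowest among the members, and it passed at -0.39 (0.0425) without the 3 low regional libraries and at -0.52 (0.018) without the 13 atypical ones. Slc17a5 had 0.49 ± 0.19 (0.137). The glycoproteins lay between 0.07 ± 0.08 for Lamp1 and 0.24 ± 0.17 for Cd68, with Lamp2 at 0.21 ± 0.08 and Scarb2 at 0.23 ± 0.09, all positive on the log2 scale. Laptm5 had 0.08 ± 0.12 and Laptm4a 0.16 ± 0.09. A p that missed the threshold does not show that these levels were equal to WT saline levels. The accessory subunit Atp6ap2 was near the threshold at 0.27 ± 0.08 (adjusted p = 0.0506), as was Atp6v1b2 at 0.32 ± 0.10 (0.0581), whereas Atp6v1f had 0.14 ± 0.09 and Atp6ap1 0.08 ± 0.10. Without WT saline replicate 6, Atp6ap2 passed at 0.30 (0.0269) and Atp6v1b2 at 0.41 (0.00613). Of the microglia markers, 1 of 15 was higher in DKO AAV than in WT saline brains, and of 14 neuron markers 2 were higher and 2 lower. Of the 5 tested reactive astrocyte markers 2 (Serpina3n and Gfap, named after their values were seen) were higher, with log2 differences of up to 3.26, and of 8 mitochondrially encoded genes 7 were lower.

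In WT AAV relative to WT saline brains no member was called, nor any of the 11123 genes (0.0%). At an unadjusted p under 0.05 there were 254 genes in edgeR's quasi-likelihood test (2.28%), none of them a member, and DESeq2 called none either. Lamp1 had 484 to 563 CPM in WT AAV brains, against 495 to 562 CPM in WT saline brains, and Atp6v1a had 388 to 582 CPM in WT AAV brains, against 402 to 514 CPM in WT saline brains. The log2 differences of all members lay between -0.31 and 0.35. The treatment effect in DKO mice was then set against that in WT mice. No member passed in edgeR's quasi-likelihood test or in DESeq2, and 2 genes did among all tested (0.018%). At an unadjusted p under 0.05 there were 9 members, all with the more negative effect in DKO mice, against 11.4% of all genes in either direction. They were Atp6v1f, Cd68, Lamp1, Lamp2, Laptm5, Atp6ap1, Tpcn1, Npc1 and Atp6ap2, with adjusted p-values of 0.254 to 0.43.

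The size of the V1 difference varied with the batch given in the labels, and each batch held 1 to 4 mice of a group. Averaged over the 9 V1 subunits, DKO saline minus WT saline brains differed by 0.54 in batch 1, 0.39 in batch 2, 0.30 in batch 3 and 0.07 in batch 4 on the log2 scale. DKO AAV minus WT saline brains differed by 0.45, 0.45, 0.25 and -0.03 in the same order of batches. The accessory subunits had 0.53, 0.71, 0.53 and 0.16 for DKO saline minus WT saline brains, and the glycoproteins 0.32, 1.13, 0.53 and 0.52. For DKO AAV minus WT saline brains the glycoproteins had 0.07, 0.24, 0.19 and 0.19. In batch 4, which held 3 DKO AAV, 4 DKO saline and 2 WT saline mice, the small V1 averages covered unlike subunits. For DKO saline minus WT saline brains there, Atp6v1f and Atp6v1h had 0.38 and Atp6v1a 0.28, whereas Atp6v1g2 had -0.30 and Atp6v1d -0.19. The DKO saline mice of batch 4 were older, by less than a week, than the other mice of that batch, so age and group cannot be told apart within it. No test compared the batches. Each of the 13 members that rose in DKO saline brains was higher there in all 4 batches, but by as little as 0.04 for Laptm5 in batch 1 and for Atp6ap1 in batch 4, and 0.06 for Laptm5 in batch 3. For DKO AAV against WT saline brains, Atp6v1a was higher in every batch, by 0.42 to 0.50, and Atp6v1h by 0.32 to 0.58, whereas Atp6v1e1 ran from -0.15 to 0.62. Batch values carry no sex term, and in batches 1 and 2 the DKO AAV and WT saline mice were of opposite sex.

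**Figure D3:**
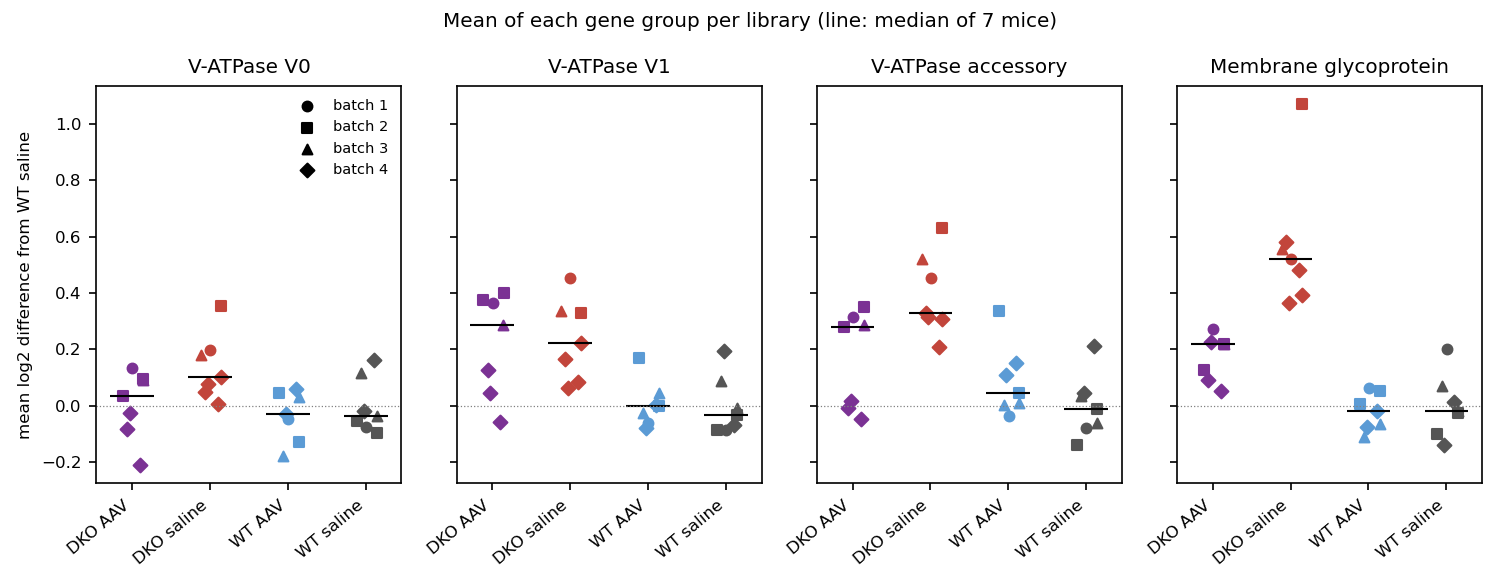
Mean log2 difference from the WT saline mean (vertical axis) over the tested genes of 4 groups of members, 1 point a library, with DKO AAV, DKO saline, WT AAV and WT saline from left to right, symbols for the 4 batches and lines at group medians. V1 points of batch 4 are the lowest of both DKO groups, and DKO saline replicate 2 of batch 2 stands at 1.07 in the glycoprotein panel.

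Across libraries, the glycoprotein mean ran from 0.05 to 0.27 in DKO AAV and 0.36 to 1.07 in DKO saline brains, against -0.11 to 0.06 in WT AAV and -0.14 to 0.20 in WT saline brains. The V1 mean ran from -0.06 to 0.40 in DKO AAV and 0.06 to 0.45 in DKO saline brains, against -0.08 to 0.17 in WT AAV and -0.09 to 0.20 in WT saline brains. The 2 DKO groups were thus apart in every library for the glycoproteins and interleaved for V1. The V0 mean overlapped among all 4 groups, with medians of 0.03 in DKO AAV, 0.10 in DKO saline, -0.03 in WT AAV and -0.04 in WT saline brains. The accessory mean had medians of 0.28 in DKO AAV, 0.33 in DKO saline, 0.05 in WT AAV and -0.01 in WT saline brains.

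Several members are paralogs that can replace one another in the complex or membrane, so their balance was taken within each library as the log2 ratio of their counts. With 3' tags this ratio is not a molar ratio, and only its difference between groups is read. Lamp1 over Lamp2 was 1.52 ± 0.06 (SD, n = 7) in DKO saline brains, against 1.65 ± 0.13 in WT saline brains, a difference of -0.13 (exact permutation test, two-sided, p = 0.0303, adjusted p = 0.303 over 10 tests). With the exact permutation kept within batches the adjusted p of the same difference was 0.037. It comes from the smallest p that the few arrangements within batches allow. Without WT saline replicate 1 the difference was -0.17 (exact permutation over all libraries, adjusted p = 0.0117). Between DKO AAV and DKO saline brains this ratio differed by 0.0018 (exact permutation test, adjusted p = 0.973), with 1.52 ± 0.13 in DKO AAV and 1.52 ± 0.06 in DKO saline brains. Laptm4a over Laptm4b was 2.99 ± 0.38 in DKO saline brains, against 2.74 ± 0.15 in WT saline brains, and Atp6v0a1 over Atp6v0a2 was 1.52 ± 0.33 in DKO saline brains, against 1.74 ± 0.20 in WT saline brains. Neither difference passed (exact permutation tests, adjusted p = 0.393 for both). The pairs of small V0 and V1 stalk subunits, Atp6v0e with Atp6v0e2 and Atp6v1g1 with Atp6v1g2, differed by 0.03 and -0.07 between DKO saline and WT saline brains. No pair passed in DKO AAV against DKO saline brains.

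**Figure D4:**
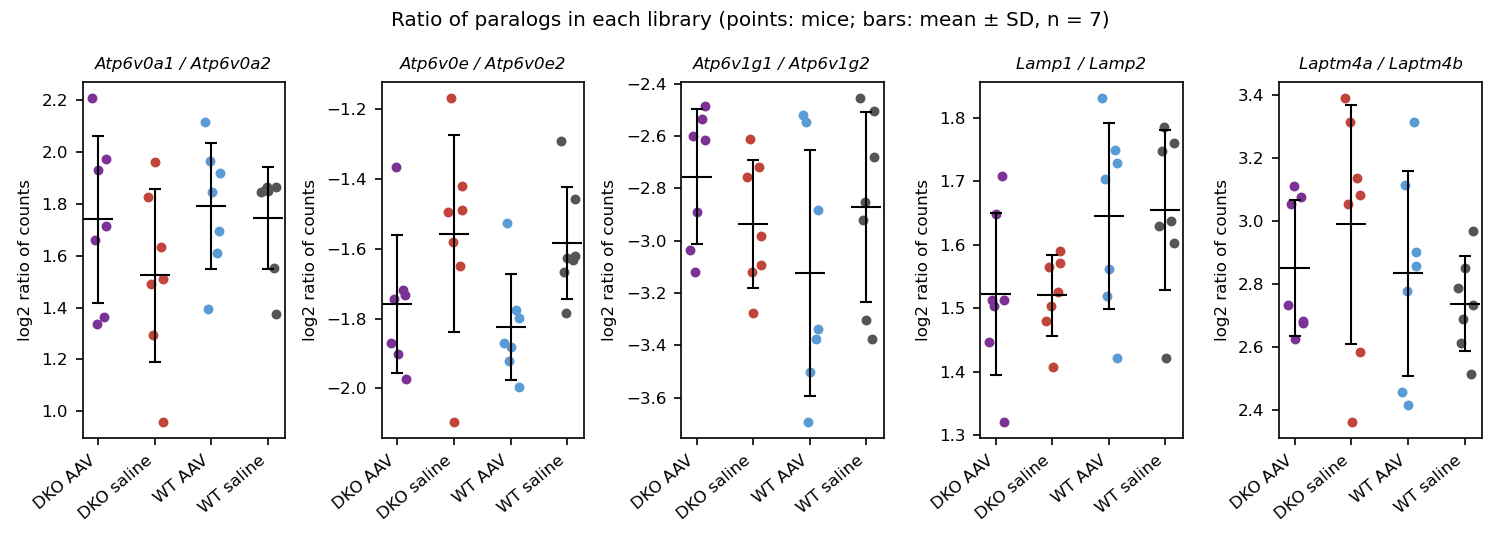
Log2 ratio of counts of 5 paralog pairs (vertical axes, which do not start at 0) in each library of DKO AAV, DKO saline, WT AAV and WT saline groups; points are mice and bars the mean ± SD of 7. The groups overlap in all 5 panels, and Lamp1 over Lamp2 averages 1.52 in both DKO AAV and DKO saline, against 1.65 in WT saline.

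Genes related to the members were also counted. Of 21 other V-ATPase isoforms and assembly factors, 13 were tested and 1 rose in DKO saline relative to WT saline brains, against 3.62% of all genes: Atp6v0d2, the d subunit isoform of osteoclasts and macrophages, with 12.1 to 41.0 CPM (median 25.1) in DKO saline brains, against 4.04 to 24.3 CPM (median 10.3) in WT saline brains. Its log2 difference was 0.96 ± 0.28 (adjusted p = 0.03). None of the 13 was called in DKO AAV against DKO saline or WT saline brains. Of 29 tested genes for other lysosomal channels, transporters and membrane proteins, 4 rose in DKO saline relative to WT saline brains, against the same 3.62%. Among them were Slc15a4, a histidine and peptide transporter of immune cells, with a log2 difference of 0.72 ± 0.15, Slc29a3, a nucleoside transporter, with 0.58 ± 0.15, and Rnf13, a membrane-bound ubiquitin ligase, with 0.46 ± 0.10. Slc29a3 was the 1 gene of that list that fell in DKO AAV relative to DKO saline brains, by 0.75 ± 0.14 on the log2 scale (adjusted p = 0.00297).

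The V-ATPase is a docking partner of the Ragulator and Rag GTPases, which signal amino acids from the lysosome to mTORC1. Of 18 tested genes for Ragulator, Rag, folliculin and BORC proteins, 4 rose in DKO saline relative to WT saline brains, against 3.62% of all genes. Fnip1, a folliculin partner, ran from 116 to 139.5 CPM in DKO saline brains, against 84.0 to 107 CPM in WT saline brains, without overlap, and its log2 difference was 0.49 ± 0.09 (adjusted p = 0.000385). Its relative Fnip2 had 0.68 ± 0.19 (adjusted p = 0.0209) and the GTPase Rraga 0.33 ± 0.08 (0.00945). The fourth, folliculin (Flcn), had 0.44 ± 0.13 (0.027) and is named after its values were seen. Fnip2 fell in DKO AAV relative to DKO saline brains, by 0.60 ± 0.17 (adjusted p = 0.0478). Fnip1 and Rraga were also higher in DKO AAV than in WT saline brains, by 0.40 ± 0.09 (adjusted p = 0.00337) and 0.35 ± 0.08 (0.00746).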

How the data were processed

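RNA from frozen brain powder was extracted with the Qiagen RNeasy plus kit and made into QuantSeq 3' FWD libraries with unique molecular identifiers, per the labels' protocols. FastQC 0.11.5, STAR, MultiQC 1.0, R 4.2, edgeR 3.40.2 and build GRCm38.p6 are named in the submitters' processing notes. Neither source names the counting program, its strand setting or the annotation. The authors deposited raw counts per gene, rounded to 2 significant digits, as were 100% of the 1506428 values checked, so values of 100 or more can be off by up to 4.76%. The 3' tags do not scale with gene length.

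The deposited counts were tested with edgeR 4.0.16 in R 4.3.3: genes kept by filterByExpr at default settings (at least 10 counts, total of at least 15), TMM, and a quasi-likelihood fit with group, sex and batch over all 28 mice, a Benjamini-Hochberg threshold of 0.05, and an SE taken as the log2 difference over the square root of F. The common coefficient of variation was 13.6%. CPM were computed with TMM factors, and group means of log2 CPM used a prior count of 2. Paralog ratios, with 0.5 added to each count, were compared by exact permutation tests. The scripts were tested on simulated data. Groups, sex, batch and age came from the labels, and mice labelled ctrl received saline, per the series' design text. Replicate numbers follow sample order and pair nothing. The 84 pairs of libraries within groups all differed beyond sampling noise (highest p 7.6e-06). Replicates are separate mice. Low regional libraries had a mean striatal or cerebellar marker difference under -1, and atypical ones also an olfactory bulb difference over 0.75 or over 500 counts of Prl and Gh.

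The members, the related gene lists and the marker lists were chosen with earlier results of these data known. All members are named, with full values for those called over all 28 libraries and for paralog pairs, together with Grn, Tmem106b and up to 3 called genes of each related list with the smallest p. 1 gene that this rule names is not reported here. Of the lists, microglia, neuron, reactive astrocyte, mitochondrial, pituitary, striatal and cerebellar genes are reported. Promoters are from RefSeq, GRCm38.p6, which had an entry for 30 of the 38 members. Alternatives were scaling by library totals, leaving mitochondrial genes out of the scaling, DESeq2 1.42.0, no filter, no sex and batch terms, only the groups compared, and leaving out each mouse, each batch and the libraries of unusual regional content.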

Additional observations from a re-analysis of the deposited data

Results flagged for a closer look

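A mouse was set apart when the gap between it and the nearest other mouse of its group of 7 exceeded Dixon's critical share of the group's range. Of 112 sets of 7 values screened, 11 were set apart, and chance alone gives about 1 in 20. The sets are not independent: many are drawn from the same 7 mice, and gene group means contain genes that were also screened singly. The 11 are therefore not read as an excess over chance. The explanations for these values were not tested.

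DKO saline replicate 2 was the highest of its group for Lamp1 (983 CPM, the other 6 at 596 to 685), Lamp2 (326 CPM, the others at 208 to 258), Scarb2 (393 CPM, the others at 252 to 306), the V0 subunit Atp6v0a2 (74.7 CPM, the others at 41.4 to 54.5) and the mean of the glycoproteins (1.07 on the log2 scale above the WT saline mean, the others at 0.36 to 0.58). This mouse also had the highest microglia mean of its group, 0.92, and is 1 of the 3 libraries of low striatal or cerebellar level. DKO saline replicate 1 was the highest of its group for Atp6v1a (685 CPM, the others at 519.9 to 589.6), Atp6v0a1 (179 CPM, the others at 128 to 147) and Atp6v1g2 (411 CPM, the others at 279 to 319.9), all pump subunits. WT saline replicate 7 was the lowest of its group for Atp6v1a (402 CPM, the others at 478 to 514).

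In WT AAV brains, replicate 5 had the lowest mean of the channel and ion transport genes (-0.185 on the log2 scale against the WT saline mean, the others at 0.01 to 0.05). In DKO AAV brains, replicate 4 had the highest mean of the transporters (0.41, the others at -0.02 to 0.14).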

How the results depend on the processing

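The rise of the 13 members called higher in DKO saline relative to WT saline brains kept its direction in every setting run. Not every call held. With 1 batch left out, the highest adjusted p (edgeR's quasi-likelihood test) was 0.0673 for Atp6v1a, 0.148 for Atp6v1b2, 0.149 for Atp6v1c1 and 0.231 for Atp6ap1. It was 0.077 for Laptm4a and 0.0561 for Laptm5. In those fits Atp6v1f, Atp6v1h, Atp6ap2, Lamp1, Lamp2, Cd68 and Scarb2 stayed under 0.05. Atp6v1a and Atp6v1c1 also missed it without sex and batch terms and with only the groups compared. The fall after AAV(L):bPGRN was the less stable result. Deposited counts are rounded, genes under about 10 CPM have wide errors, and no alternative separates cell number from RNA per cell. No paired analysis was possible because replicate numbers follow sample order and pair no mice; batch, in which every group had mice, was a term of the fit.

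For DKO saline against WT saline brains, 1183 genes were called with library totals, 361 without sex and batch terms and 349 with only the groups compared, against 767. Without atypical libraries 903 genes were called. Pump genes called were 11 with library totals, 4 with only the groups compared and 11 without atypical libraries, against 7, and the other membrane genes were 2 without atypical libraries, against 6. Leaving out a mouse gave 410 to 925 genes, 6 to 9 pump genes and 6 other membrane genes, and leaving out a batch gave 243 to 1173 genes, 4 to 9 and 5 to 7.

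For DKO AAV against DKO saline brains, 710 genes were called with no filter, 627 with only the groups compared, 77 without the 3 low regional libraries and 27 without atypical libraries, against 336. Pump genes were 2 with only the groups compared and 0 without either set of libraries, against 1, and other membrane genes 0 without atypical libraries, against 4. Leaving out a mouse gave 54 to 700 genes, 0 to 2 pump genes and 1 to 4 others, and a batch 23 to 595 genes, 0 to 2 and 0 to 4. Atp6v1e1 ran from -0.0345 (without batch 2) to 0.0915 and was -0.0729 without atypical libraries.

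For DKO AAV against WT saline brains, 1217 genes were called with library totals, 319 without sex and batch terms, 1174 without low regional and 1087 without atypical libraries, against 584. Pump genes were 9 with library totals, 5 with DESeq2, 1 without sex and batch terms and 8 without either set of libraries, against 3, and others were 4 with library totals and 1 (Atp13a2, lower) without either set, against 0. Leaving out a mouse gave 271 to 898 genes, 2 to 7 pump genes and 0 others, and a batch 189 to 616, 1 to 7 and 0. Atp6ap1 ran from -0.0073 (without batch 3; -0.0044 without batch 2) to 0.2913. Laptm5 turned to -0.0084 and -0.0012 without WT saline replicates 2 and 6, -0.0095 and -0.0283 without batches 2 and 4, and -0.0067 and -0.0246 without low regional and atypical libraries, with highest values of 0.2046 without batch 3 and 0.2139 with library totals.

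For the treatment effect in DKO minus WT mice, 13 genes were called with DESeq2, 156 with no filter, 5 without low regional libraries and 0 without sex and batch terms or without atypical libraries, against 2, with 1 other membrane gene with no filter; leaving out a mouse gave 0 to 16 and a batch 0 to 3. For WT AAV against WT saline brains, 10 genes were called with no filter and 1 without atypical libraries, against 0. The Lamp1 to Lamp2 ratio in DKO saline minus WT saline brains was -0.13 with an adjusted p of 0.037 (exact permutation within batches, from the smallest p it allows). The difference ran from -0.1736 (without WT saline replicate 1, exact permutation, adjusted p 0.0117) to -0.1128 with 1 mouse left out. The cause of each of these changes was not tested.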
